A study of Mus musculus with 26 samples.

Results

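The 9 genes described here encode components and regulators of the complement system: *C1qa*, *C1qb*, *C1qc*, *C1ra*, *C4b*, *C3*, *Cfb*, *Serping1* and *Cd55*. They were taken by name from the deposited tables of mouse RPE/choroid, the retinal pigment epithelium together with the vascular bed beneath it, and not by their values. They are 9 of the 16426 genes in the single-cell tables and 9 of the 17623 genes in each of the bulk tables used, and all 9 had a row in every table.

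Complement is a cascade of mostly secreted proteins that tags surfaces for clearance by phagocytes and draws in inflammatory cells. The classical pathway starts when C1q, assembled from the A, B and C chains encoded by *C1qa*, *C1qb* and *C1qc*, binds a target and activates the protease C1r, which then activates C1s. C4 and C2 form the convertase that cleaves C3, the component on which all pathways converge, while factor B (*Cfb*) supplies the protease of the alternative pathway convertase. C1 inhibitor (*Serping1*) blocks C1r and C1s, and CD55 is a membrane protein that speeds the decay of the convertases. In the eye, complement has long been studied for its genetic link to age-related macular degeneration, a disease of the RPE and the choroid.

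The study profiled RPE/choroid cells of 3-month-old mice by scRNAseq, with 1 library for each strain (B6129PF1/J and C57BL/6J), each from a male and a female eye pooled before sorting. It also sequenced RNA of whole RPE/choroid from 6-month-old mice on a C57BL/6J background, 3 *Ihh*+/+ and 3 *Ihh* iΔEC/iΔEC. In the latter the gene of Indian hedgehog (IHH) was targeted for induced deletion in endothelial cells (ECs). Per the study's methods, mice of both genotypes carried a tamoxifen-inducible Cre driven by the endothelial *Cdh5* promoter, and per the labels tamoxifen was given to both 12 weeks before sacrifice. GLI1+ cells, the stromal cells that respond to IHH, were sorted from RPE/choroid pooled from Gli1GFP/+ mice (SWR/J background in the labels). Per the study's methods, this line was made in SWR/J and then outcrossed to BALB/c, and the sorted mice were female. The cells were expanded in culture and exposed for 24 h to DMSO or to 100 nM SAG, an agonist of the Hedgehog transducer Smoothened, with 3 samples each. The 3 samples of a treatment came from cells of the same pool, and the bulk values used here are the authors' means of each group. No spread between mice or cultures is therefore given, and no test was run on any value below.

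In the single-cell tables, the unique molecular identifiers (UMIs) of each gene were summed over the cells of each of the authors' 13 deposited clusters. The sums were scaled to 10,000 UMIs of all genes. Most of these clusters, cluster 7 among them, hold other cell numbers than the study printed. The B6129PF1/J library held 3637 cells and the C57BL/6J library 3928, with medians of 3881 and 3174.5 UMIs per cell, and 22 cell barcodes occurred in both. Intervals are exact 95% Poisson intervals for levels and exact 95% Clopper-Pearson intervals for shares. They cover counting error only. Cell type labels were checked against summed marker lists: the lists for RPE, smooth muscle cells, melanocytes and hematopoietic cells were highest in the clusters so labelled (1, 9, 10 and 11) in both libraries, and those for ECs, stromal cells and Schwann cells were highest in clusters 4, 7 and 13, each carrying its label.

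The start of *C3* and that of *C1qb* are shown because each gene stood for a different pattern below, stromal for *C3* and hematopoietic for *C1qb*. RefSeq promoter windows of GRCm38 were available for 5 of the 9 members, and the 250 bases before the start are printed on the gene's strand, which is the minus strand for both. The window of *C1qb* lies at chr4:136886201-136886450 and that of *C3* at chr17:57228137-57228386, and neither overlaps an annotated exon. Capitals mark the matches to the motifs given below.
C1qb: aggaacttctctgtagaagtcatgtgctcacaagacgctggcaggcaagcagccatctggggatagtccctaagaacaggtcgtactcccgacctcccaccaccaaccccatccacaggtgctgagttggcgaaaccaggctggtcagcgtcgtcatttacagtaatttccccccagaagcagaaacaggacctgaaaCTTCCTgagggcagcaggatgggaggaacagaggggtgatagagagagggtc
C3: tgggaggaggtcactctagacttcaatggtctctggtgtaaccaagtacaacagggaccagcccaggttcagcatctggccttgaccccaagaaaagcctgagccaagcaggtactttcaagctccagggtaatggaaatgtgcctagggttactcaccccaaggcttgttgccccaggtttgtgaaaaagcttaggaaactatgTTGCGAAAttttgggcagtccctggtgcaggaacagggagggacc

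Motifs were searched on both strands of these 250 bases and were chosen after the sequences had been seen. The core of the interferon-stimulated response element (GAAANNGAA), present in 7.13% of all 32851 promoter windows, matched in none of the 5 members' windows. The gamma-activated site (TTCNNNGAA), present in 7.02% of windows, did not match in them either. The C/EBP site (TTGCGNAA), present in 0.67% of windows, matched once in *C3*, starting 45 bases before the start. The ETS core (AGGAAG), found in 29.5% of windows, matched on the opposite strand of *C1qb*, 52 bases before the start, and on both strands of *C1qc*. The NF-κB site, searched by its consensus and found in 3.9% of windows, matched in *C1qc* 41 bases before the start. *Cd55* and *C1ra* held none of the 5 motifs. *C1qa*, *C4b*, *Cfb* and *Serping1* had no window and were not searched. A match describes these letters and is not evidence of binding.

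Coordinates of the members are those of the GENCODE annotation on GRCm38. *C1qb* (chr4:136880129-136886187), *C1qc* (chr4:136889804-136893065) and *C1qa* (chr4:136895917-136898803) follow each other on the minus strand within 18675 bases. *C4b* (chr17:34728380-34743882) and *Cfb* (chr17:34856374-34862518) lie in the same stretch of chromosome 17, and 85 bases separate *Cfb* from *C2*. *C3* lies apart on that chromosome (chr17:57203970-57228136). *C1ra* (chr6:124512405-124523443), *Serping1* (chr2:84765387-84775444) and *Cd55* (chr1:130439027-130462744) each have no other member on their chromosome. *C1ra*, *C4b* and *Cd55* each have a near copy on the same chromosome and strand. These are *C1rb* (chr6:124570294-124581171), *C4a* (chr17:34809092-34823464) and *Cd55b* (chr1:130388537-130423009). Near copies can share reads with 3 members. In the longest annotated transcript, 35.2% of the 50-base windows of *C4b* also occur in *C4a*, 48.0% of those of *C1ra* in *C1rb* and 13.3% of those of *Cd55* in *Cd55b*, so the values of these 3 genes carry that uncertainty.

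The 3 C1q chains were concentrated in hematopoietic cells. In cluster 11, *C1qa* reached 15.6 UMIs per 10,000 (14.6 to 16.7) in B6129PF1/J and 19.4 (18.3 to 20.5) in C57BL/6J. *C1qb* reached 14.9 (13.9 to 15.9) and 15.6 (14.7 to 16.7), and *C1qc* reached 11.9 (10.98 to 12.8) and 13.9 (12.96 to 14.9). Of all UMIs of a chain, this cluster of 106 and 127 cells held between 96.1% (*C1qb* in B6129PF1/J) and 98.0% (*C1qc* in C57BL/6J). The intervals of the strains overlapped for *C1qb* and did not for *C1qa* or *C1qc*, and with 1 library per strain that difference could not be tested.

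**Figure D1:**
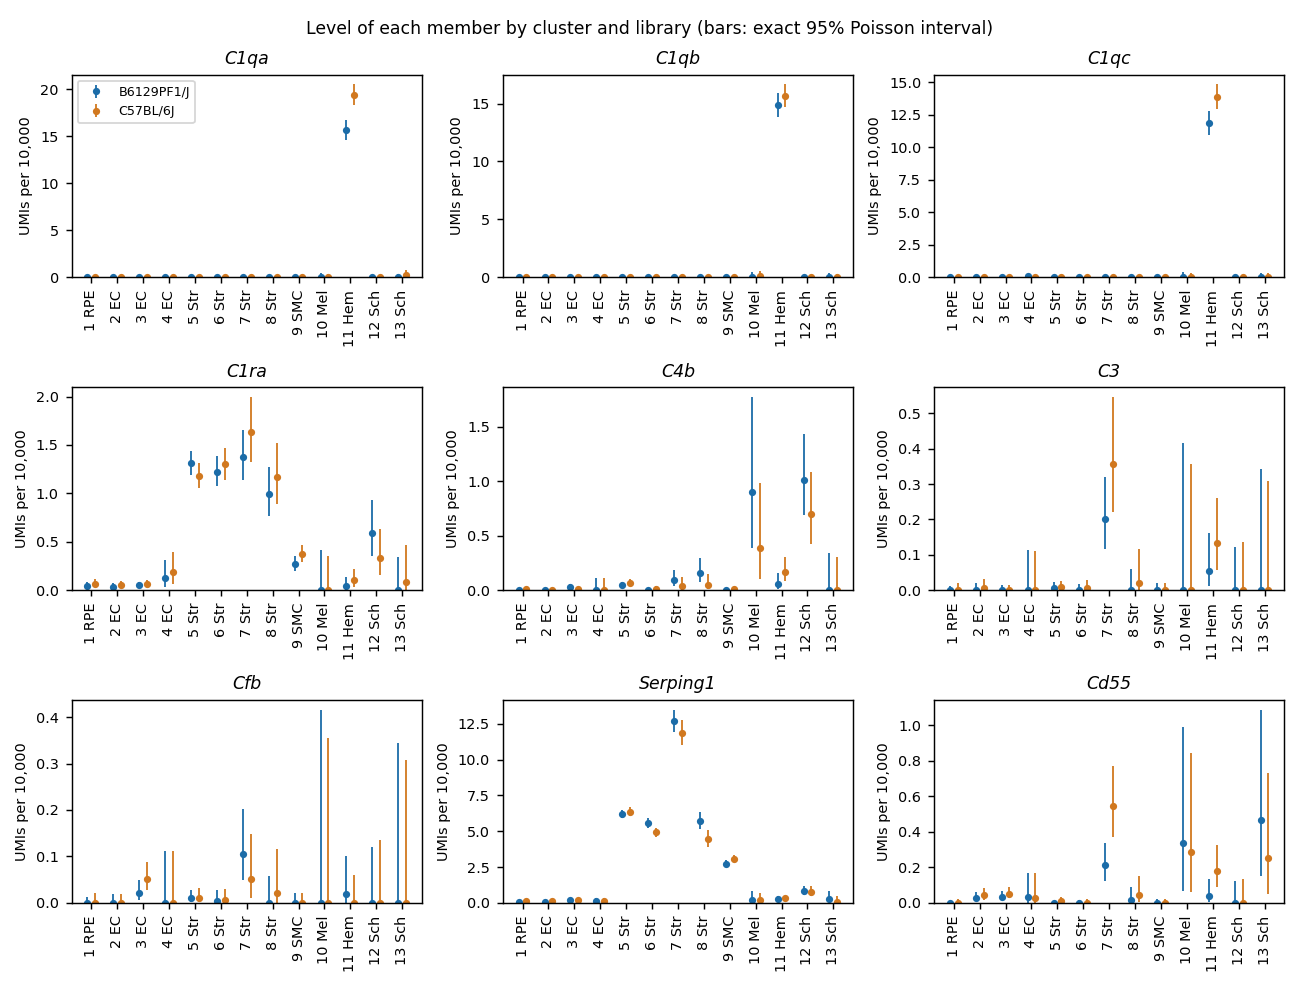
UMIs per 10,000 of each member (y axis, own scale per panel) in the 13 clusters (x axis; Str, stromal; SMC, smooth muscle; Mel, melanocytes; Hem, hematopoietic; Sch, Schwann), for B6129PF1/J in blue and C57BL/6J in orange, with exact 95% Poisson intervals. The C1q chains peak in cluster 11 at 11.9 to 19.4, *C1ra* and *Serping1* span the stromal clusters 5 to 8, and *C3*, *Cfb* and *Cd55* stay below 1 in every cluster.

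Outside cluster 11 the chains were close to 0. UMIs of any chain occurred in 72 of 3531 cells (2.04%) in B6129PF1/J and in 59 of 3801 cells (1.55%) in C57BL/6J, for 81 and 73 UMIs in all. In RPE cells, *C1qa* was found in 1 of 407 cells (0.246%) and 2 of 374 cells (0.535%), at median depths of 5263 and 3406.5 UMIs, against 36.8% (27.6 to 46.7) and 41.7% (33.0 to 50.8) of cluster 11 cells, at 5047.5 and 3977 UMIs. In stromal cluster 5 *C1qa* was found in 12 of 848 cells (1.42%) and 8 of 839 cells (0.954%), and the source of UMIs outside cluster 11 was not tested.

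Within cluster 11 the chains mostly came together. In B6129PF1/J, 38 cells (35.8%) had UMIs of all 3 chains, 4 had 1 or 2 chains and 64 (60.4%) had none. In C57BL/6J, 50 cells (39.4%) had all 3 chains, 11 had 1 or 2 and 66 (52.0%) had none. The cells with all 3 chains carried 99.18% and 99.02% of the C1q UMIs of the cluster, with a median of 54 and 47 C1q UMIs per cell and up to 242 and 285 in a single cell.

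Most of these cells carried macrophage markers. Cells were ordered by how many of 7 macrophage genes (*Csf1r*, *Adgre1*, *Mrc1*, *Cd163*, *Fcgr1*, *Cd68* and *Mertk*) had a UMI. Of the cells with 3 or more, 36 of 44 (81.8%, 67.3 to 91.8) in B6129PF1/J and 44 of 57 (77.2%, 64.2 to 87.3) in C57BL/6J had all 3 chains, and *C1qa* stood at 34.6 and 41.3 UMIs per 10,000. Of the cells with none of the 7, 0 of 28 (upper limit 12.3%) and 0 of 19 (upper limit 17.6%) had all 3 chains. With 1 marker it was 0 of 14 and 2 of 19 cells, and with 2 markers 2 of 20 and 4 of 32. Cells without a marker were shallower, with medians of 2716 and 2897 UMIs against 5366.5 and 3977 in cells with 3 or more. Cells with 1 marker (6719 and 5882) and with 2 markers (5466.5 and 4393.5) were not. The part of depth in this order was not tested. A minority of macrophage-marker cells lacked C1q, since 6 of 44 and 9 of 57 cells with at least 3 markers had no UMI of any chain.

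**Figure D2:**
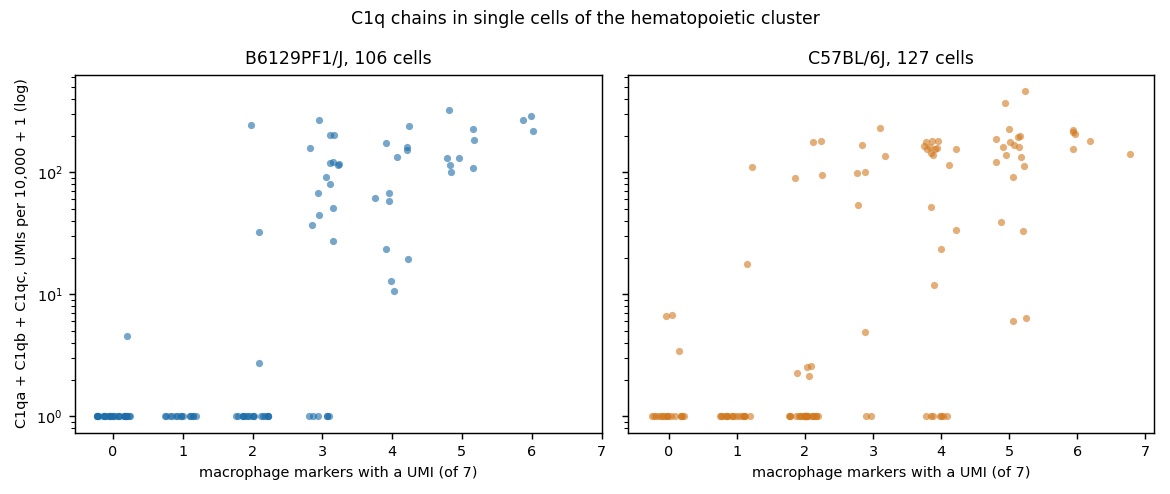
Summed UMIs per 10,000 of *C1qa*, *C1qb* and *C1qc* plus 1 (y axis, log scale) in each cell of cluster 11, by the number of 7 macrophage markers with a UMI (x axis, spread sideways for display), in B6129PF1/J (106 cells) and C57BL/6J (127 cells). Cells with 3 or more markers mostly sit above 10, while cells with 0 or 1 marker sit at the bottom line, which is 0 UMIs, apart from 1 cell in B6129PF1/J and 5 in C57BL/6J.

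The other cells of cluster 11 differed between the libraries. The summed level of 5 mast cell genes in cells with none of the macrophage markers was 70.8 UMIs per 10,000 in C57BL/6J and 0.268 in B6129PF1/J, whereas that of 5 lymphocyte genes was 14.3 and 14.7. Levels of C1q were therefore also taken in cells with 3 or more macrophage markers alone. There *C1qb* stood at 33.5 (31.2 to 35.9) in B6129PF1/J and 33.3 (31.1 to 35.6) in C57BL/6J, *C1qc* at 26.3 (24.3 to 28.4) and 29.4 (27.4 to 31.6), and *C1qa* at 34.6 (32.3 to 37.1) and 41.3 (38.9 to 43.9). Only for *C1qa* did the strains' intervals stay apart.

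*C1ra*, the protease that C1q activates, had another source. In the stromal clusters 5, 6, 7 and 8 it stood at 1.31, 1.22, 1.38 and 1.00 UMIs per 10,000 in B6129PF1/J and at 1.18, 1.299, 1.63 and 1.17 in C57BL/6J, and the intervals of these 4 clusters overlapped each other except for clusters 5 and 7 in C57BL/6J (1.06 to 1.32 and 1.32 to 2.00). Stromal cells held 89.1% (87.0 to 91.1) and 85.2% (82.6 to 87.5) of its UMIs. Smooth muscle cells stood at 0.265 (0.195 to 0.352) and 0.368 (0.285 to 0.468) and cluster 12 Schwann cells at 0.588 (0.349 to 0.930) and 0.330 (0.151 to 0.627), with overlapping intervals in both libraries. In cluster 11, where the C1q chains were highest, *C1ra* had 2 and 6 UMIs. The share of cells with *C1ra* was 40.5% and 39.2% in cluster 7, at medians of 4318 and 3380.5 UMIs, against 3.44% and 2.94% in RPE cells.

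*C4b*, the C4 component that C1s cleaves, was highest in cluster 12, one of the Schwann clusters. It stood there at 1.01 UMIs per 10,000 (0.688 to 1.44) in B6129PF1/J and 0.697 (0.420 to 1.09) in C57BL/6J, from 31 and 19 UMIs in 23 and 16 of 108 cells each. Melanocytes followed at 0.901 (0.389 to 1.78) and 0.385 (0.105 to 0.987), from 8 and 4 UMIs in 16 and 26 cells, and their intervals overlapped those of cluster 12. Cluster 13 Schwann cells had 0 UMIs in 30 and 46 cells, with upper limits of 0.343 and 0.308 UMIs per 10,000. Stromal clusters lay between 0 and 0.158 in B6129PF1/J and between 0.0105 and 0.065 in C57BL/6J, but being large they held 40.0% and 39.3% of the UMIs. RPE cells gave 0 UMIs in 407 cells and 1 UMI in 374 cells.

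*C3* was rare, with 22 UMIs in B6129PF1/J and 34 in C57BL/6J, and most of them lay in stromal cluster 7. That cluster had 17 UMIs in 9 cells and 21 UMIs in 8 cells, or 0.200 UMIs per 10,000 (0.117 to 0.321) and 0.357 (0.221 to 0.546). With each cell thinned to 1700 UMIs the levels were 0.0636 and 0.298. The 3 other stromal clusters had at most 2 UMIs each in either library. Cluster 11 was next, with 3 and 8 UMIs (0.0548 and 0.132), and its interval overlapped that of cluster 7 in both libraries. RPE cells had 0 UMIs in both libraries, with upper limits of 0.0123 and 0.0211 UMIs per 10,000.

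*Cfb* was rarer still, with 19 and 22 UMIs, and its leading clusters were a stromal and an endothelial one. Cluster 7 had 9 and 3 UMIs (0.106, 0.0485 to 0.201, and 0.0511, 0.0105 to 0.149). Cluster 3, the ECs with intermediate *Kdr*, had 5 and 14 UMIs (0.0207, 0.00673 to 0.0484, and 0.052, 0.0284 to 0.0872) in 4 of 430 and 13 of 549 cells. With thinned cells cluster 7 stood at 0.0636 and 0.112. The intervals of clusters 3 and 7 did not overlap in B6129PF1/J, though by a margin in the fourth decimal, and overlapped in C57BL/6J. The *Kdr*-high ECs of cluster 2 had 0 UMIs in 370 and in 403 cells, with upper limits of 0.0194 and 0.0202 UMIs per 10,000, a limit inside the interval of cluster 3 in B6129PF1/J and below it in C57BL/6J. RPE and smooth muscle cells had 0 UMIs in both libraries.

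*Serping1*, the C1 inhibitor, was highest in stromal cells. Cluster 7 had 12.7 UMIs per 10,000 (11.9 to 13.5) in B6129PF1/J and 11.8 (10.98 to 12.8) in C57BL/6J. Clusters 5, 6 and 8 stood at 6.18, 5.58 and 5.71 in B6129PF1/J and at 6.36, 4.91 and 4.46 in C57BL/6J, all with intervals below that of cluster 7. Smooth muscle cells came next at 2.74 (2.51 to 3.00) and 3.07 (2.82 to 3.34), cluster 12 Schwann cells at 0.817 and 0.770, and RPE cells and ECs lay between 0.0787 and 0.224. Stromal cells held 87.8% and 83.5% of all UMIs and smooth muscle cells 9.42% and 12.8%. At least 1 UMI was found in 91.9% and 93.0% of cluster 7 cells, against 4.18% and 4.01% of RPE cells.

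*Cd55* was detected in few cells, 43 UMIs in B6129PF1/J and 77 in C57BL/6J, but in more cell types than *C3* or *Cfb*. Cluster 7 had 0.212 UMIs per 10,000 (0.126 to 0.335) and 0.545 (0.373 to 0.769), from 18 UMIs in 10 cells and 32 UMIs in 13 cells. Melanocytes had 3 UMIs in each library (0.338 and 0.289), cluster 13 Schwann cells 5 and 3 (0.465 and 0.250), and these intervals overlapped that of cluster 7 in both libraries. Hematopoietic cells of cluster 11 had 2 and 11 UMIs (0.0365 and 0.181). ECs of clusters 2 and 3 had 0.0262 and 0.0332 in B6129PF1/J and 0.0438 and 0.052 in C57BL/6J. RPE cells and smooth muscle cells had 0 UMIs in both libraries. The strains' intervals for cluster 7 did not overlap, but up to 6 UMIs came from a single cell, and averaged over cells the level in C57BL/6J was 0.345. In cluster 7, 3 cells of each library held both *C3* and *Cd55*, of 16 and 18 cells that held either.

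The genes with the most similar profile over the 13 clusters of B6129PF1/J (Pearson's r of log2(UMIs per 10,000 + 0.1)) described the same split. The comparison covered 3464 or 3465 genes with at least 1 UMI per 10,000 in a cluster of each library, and clusters of a library share its depth. For *C1qa* they were *Aif1*, *Ms4a6d* and *Fcgr3* (r at least 0.998, and 0.972 to 0.980 in C57BL/6J), for *C1qb* *Ccl4*, *C1qa* and *Aif1*, and for *C1qc* *Arhgap30*, *Clec4a2* and *Cd53*. *C1ra* and *Serping1* shared the collagen VI genes *Col6a1* and *Col6a2*, with r of 0.975 and 0.961 for *C1ra* and 0.962 and 0.958 for *Serping1*, next to *Atf5* for *C1ra*. *C3* and *Cfb* shared *Smoc2*, *Myoc* and *Fmod*. For *C3* these had r of 0.981, 0.951 and 0.908, against 0.828, 0.861 and 0.828 in C57BL/6J. For *Cfb* they had r of 0.905, 0.956 and 0.927 but only 0.671, 0.656 and 0.603 in C57BL/6J. *C4b* was followed by *Gm2115*, *Snx1* and *Lgi4* (0.945, 0.928 and 0.920, and 0.924, 0.817 and 0.844 in C57BL/6J), and *Cd55* by *Stxbp6*, *Reep5* and *Nktr* (0.905, 0.879 and 0.859, and 0.584, 0.684 and 0.551). The profiles of *C3*, *Cfb* and *Cd55* rest on few UMIs, so their r values are weak descriptions.

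Of 46 other complement genes, 28 had a row in the single-cell tables and 12 of these reached 1 UMI per 10,000 in a cluster of both libraries. *C1s1*, the protease downstream of C1r, resembled *C1ra* in being stromal, but was highest in cluster 6 (3.66 and 4.71) and stood at 1.32 and 1.77 in smooth muscle cells. *C2*, the partner of C4, was highest in melanocytes at 3.15 and 2.70, from 28 UMIs in each library. These few cells held 12.2% and 10.2% of its UMIs, while the stromal clusters held 77.3% and 79.2%. *Cfp*, encoding properdin, the stabilizer of the alternative convertase, *C5ar1*, the C5a receptor, and *Itgb2*, a chain of complement receptors 3 and 4, were highest in cluster 11 together with the C1q chains, at 2.101 and 1.48, 1.13 and 1.90, and 1.88 and 2.52.

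Other regulators were highest in different clusters from *Serping1*. *Clu*, a terminal pathway inhibitor, was highest in RPE cells (85.0 and 88.2), and *Vtn*, another, in cluster 6 (9.86 and 7.94). *Cd59a*, the membrane inhibitor of the terminal complex, was highest in cluster 12 (5.16 and 6.49), as was *Csmd1* (1.76 in both), next to *C4b*. In cluster 13, the other Schwann cluster, *Cd59a* stood at 2.61 and 4.67, and its interval overlapped that of cluster 12 in C57BL/6J alone. *Cr1l*, which acts on convertases as CD55 does, was highest in cluster 4 ECs (2.26 and 1.93) and lowest in RPE cells (0.157 and 0.114). Its intervals in clusters 4 and 2 (1.74 and 1.77) overlapped in both libraries. *Cd93* was highest in cluster 4 (3.91 and 3.35). Its intervals in clusters 4 and 3 overlapped in B6129PF1/J and narrowly did not in C57BL/6J (2.760 to 4.04 and 2.37 to 2.751). *C1qbp* lay between 0.457 and 1.58 in every cluster.

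**Figure D3:**
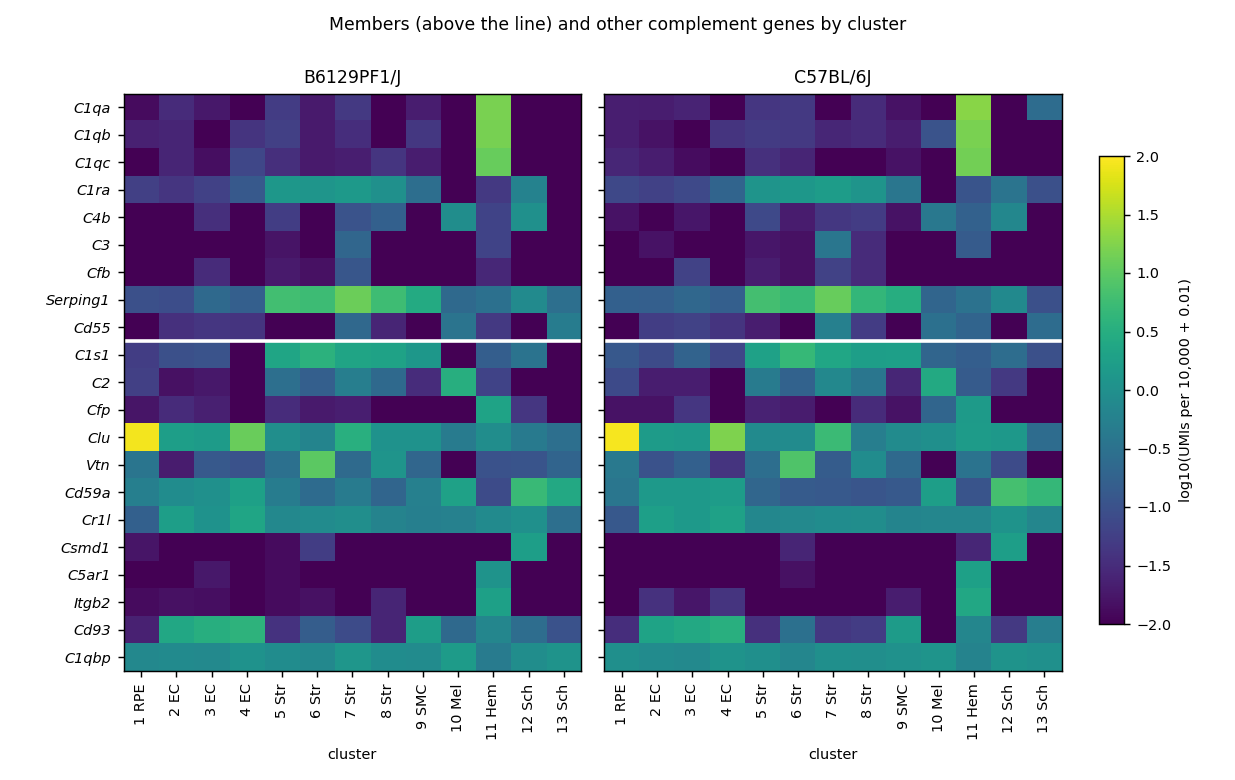
Level of the 9 members (above the white line) and of the 12 other complement genes that reached 1 UMI per 10,000 in a cluster of both libraries (below it), in the 13 clusters of each library. Color gives log10 of UMIs per 10,000 plus 0.01, from -2 (dark, no UMI) to 2 (yellow). The 3 C1q rows share cluster 11 with *Cfp*, *C5ar1* and *Itgb2*, and *Clu* in RPE cells is the brightest cell.

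In whole RPE/choroid the members were compared between *Ihh* iΔEC/iΔEC and *Ihh*+/+ mice, to ask how the tissue differs after induced *Ihh* deletion in ECs. Levels are the authors' mean FPKM, in which reads are scaled by transcript length and library size, so genes can be set side by side. *Ihh* itself was at 1.53 FPKM in *Ihh*+/+ and 0.454 in *Ihh* iΔEC/iΔEC, and its target *Gli1* at 9.40 and 3.15. All 9 members were above 1 FPKM in both groups.

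All 9 members had a lower mean in *Ihh* iΔEC/iΔEC, and none was 2-fold lower or higher. C1q transcripts were among the most abundant, with *C1qa* at 68.0 FPKM in *Ihh*+/+ and 56.4 in *Ihh* iΔEC/iΔEC, *C1qb* at 67.7 and 59.7, and *C1qc* at 70.3 and 59.5. *C1ra* stood at 14.7 and 12.3, *C4b* at 20.3 and 16.8, *Cfb* at 5.48 and 4.45, and *C3* at 3.69 and 3.04. *Serping1*, the most abundant member, stood at 82.1 and 62.1, and *Cd55*, the least abundant, at 1.71 and 1.51.

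The ratios of *Ihh* iΔEC/iΔEC to *Ihh*+/+ were close together, from 0.756 for *Serping1* to 0.882 for *C1qb* and *Cd55*, with a median of 0.830 against 0.975 over all 11411 genes that reached 1 FPKM in either group. Of those genes, 59.3% had a lower mean in *Ihh* iΔEC/iΔEC, 0.745% were at least 2-fold lower and 1.1% at least 2-fold higher. Per gene, 5.67% of these genes had a ratio at or below that of *Serping1*, and 19.6% had one at or below that of *C1qb*. Whether these ratios exceed the difference between mice was not examined here.

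Cell type markers also differed between the groups of whole tissue, where fewer cells of a type and less RNA per cell cannot be told apart. All 5 stromal markers had a lower mean in *Ihh* iΔEC/iΔEC, with a median ratio of 0.651 (0.524 to 0.832) and a summed level of 636 and 411 FPKM. Beside these, the mostly stromal members *Serping1* and *C1ra* had ratios of 0.756 and 0.835. Of the 5 macrophage markers above 1 FPKM, *Csf1r* (48.0 and 52.5), *Cd68* (39.1 and 43.0) and *Mertk* (17.9 and 20.2) had a higher mean, and *Mrc1* (3.35 and 2.23) and *Fcgr1* (1.37 and 1.23) a lower one, while *Cd163* was below 1 FPKM in both groups and *Adgre1* was not analysed in this table. *Mertk* is not particular to macrophages, since it was at 1.11 FPKM in cultured GLI1+ cells with DMSO, where *Csf1r* was at 0.061. Which cell types gave these markers in whole tissue was not tested. The C1q chains, found in the hematopoietic cells with macrophage markers, had ratios of 0.830 to 0.882. The RPE list, where all 4 genes above 1 FPKM had a higher mean, summed to 4084 and 5073 FPKM, the melanocyte list to 2090 and 1290, and the photoreceptor list to 77.5 and 26.8. The part of these lists in the members' ratios was not tested.

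Of the other complement genes, 21 were above 1 FPKM, 12 with a lower mean, and their median ratio was 0.938. Of the 6 classical pathway genes 5 had a lower mean, among them *C1s1* (26.2 and 21.3) and *C2* (27.9 and 19.8), and the median ratio was 0.810. They include *C1rb* and *C4a*, the near copies of *C1ra* and *C4b*, and the gene with a higher mean was *C1rl* (1.23 and 1.34). *Cfd*, the protease that activates factor B, was past 2-fold, at 3.15 and 0.615 FPKM, the sole other complement gene that was. *Clu* (1187 and 1465), abundant in RPE cells, had a higher mean in *Ihh* iΔEC/iΔEC, so the lower means did not extend to all regulators.

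**Figure D4:**
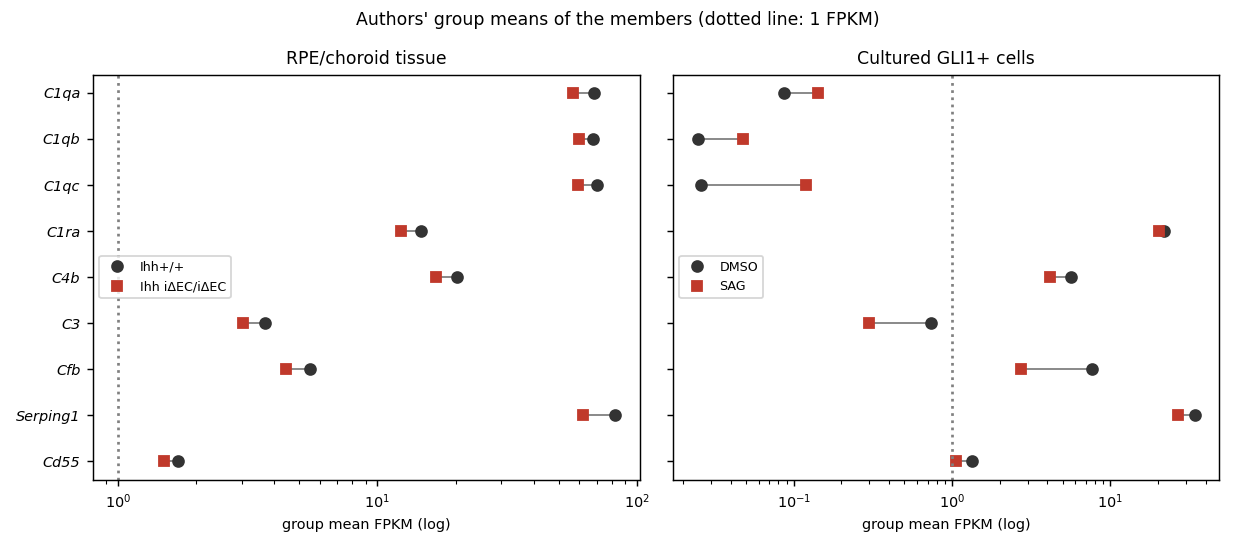
Authors' group mean FPKM of the 9 members (x axis, log scale; dotted line at 1 FPKM) in RPE/choroid of *Ihh*+/+ (circles) and *Ihh* iΔEC/iΔEC mice (squares), and in GLI1+ cells with DMSO (circles) and SAG (squares). On the left every square lies left of its circle by a similar small step, and on the right *Cfb* moves most among members above 1 FPKM, from 7.63 to 2.74.

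Cultured GLI1+ cells were compared after SAG and DMSO, to ask what Hedgehog activation does in the stromal cells that receive IHH. *Gli1* was at 0.028 FPKM with DMSO and 3.65 with SAG, and *Ptch1* at 1.13 and 10.1. Of the 9 members, 5 reached 1 FPKM in the higher group, namely *C1ra*, *C4b*, *Cfb*, *Serping1* and *Cd55*. The 3 C1q chains, which were almost absent from stromal clusters, lay at or below 0.142 FPKM in both groups, and of the macrophage markers *Mertk* alone reached 1 FPKM, at 1.11 and 1.14.

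*Cfb* was the single member past 2-fold, at 7.63 FPKM with DMSO and 2.74 with SAG, a ratio of 0.359 (log2 ratio -1.48). In the same comparison 1.18% of 10325 genes were at least 2-fold lower and 0.387% at least 2-fold higher, and *Cfb* ranked 72 from the lowest ratio. *C3* had a similar ratio of 0.405 but from levels of 0.734 and 0.297 FPKM, below the minimum. *C4b* stood at 5.62 and 4.15 (ratio 0.739), *Serping1* at 34.1 and 26.9 (0.788), *Cd55* at 1.34 and 1.06 (0.792), and *C1ra* at 21.97 and 20.4 (0.928).

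All 5 members above 1 FPKM thus had a lower mean with SAG, where 32.1% of all genes did, and the median ratio over all genes was 1.04. Of the other complement genes, 12 reached 1 FPKM, 5 of them with a lower mean, none past 2-fold, and their median ratio was 1.02. *C1s1*, the partner of *C1ra*, stood at 26.1 and 25.6 FPKM, *Masp1*, a lectin pathway protease, at 18.7 and 15.4, and *C2*, the neighbour of *Cfb* on chromosome 17, at 4.63 and 3.72. Those with a higher mean included *Masp2*, also of the lectin pathway, at 0.930 and 1.27 (ratio 1.37), and *C4bp*, which encodes a C4b-binding inhibitor, at 1.08 and 1.36 (1.27). All 5 stromal markers were slightly lower with SAG, with ratios of 0.714 to 0.992.

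A list of 9 interferon-response genes differed more in the same cells. With SAG, 8 of the 9 were at least 2-fold lower and the median ratio was 0.127, with *Isg15* at 120.0 and 15.2 FPKM and *Irf7* at 30.9 and 5.02. *Irf1* was the exception, at 6.83 and 5.68. In the *Ihh* comparison the same list had a median ratio of 0.923 over 8 genes and none past 2-fold. This list was chosen with its behaviour in these data known, and its relation to *Cfb* was not tested.

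**Figure D5:**
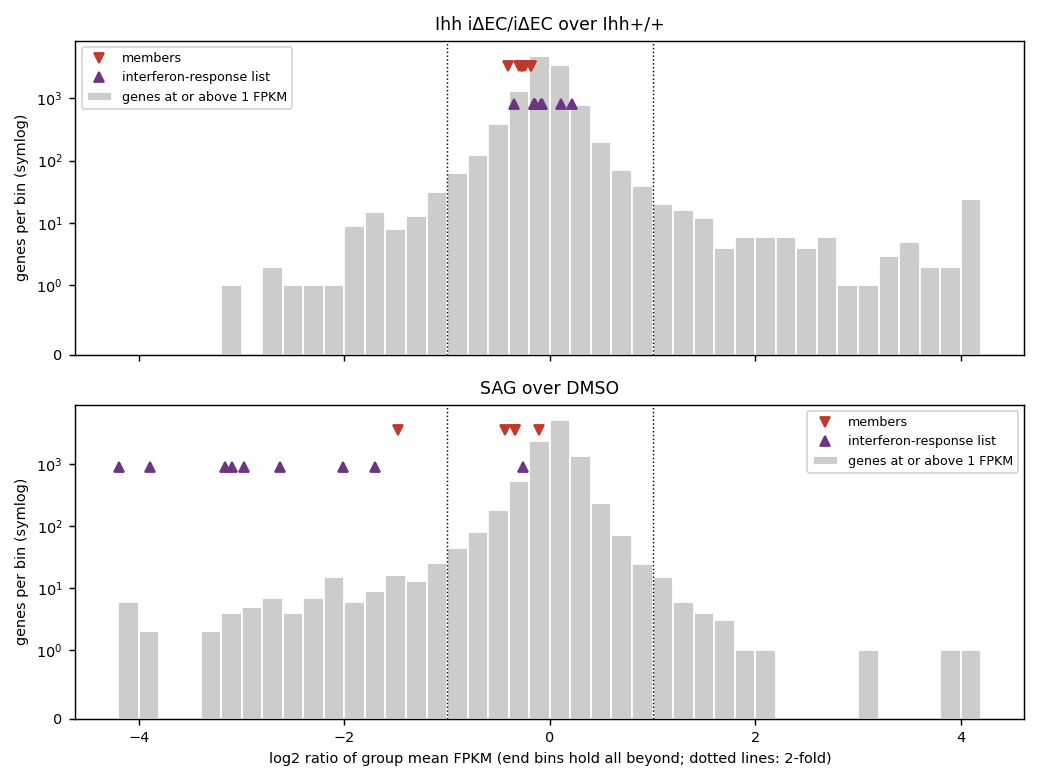
Number of genes (y axis, symmetric log scale) by log2 ratio of group mean FPKM (x axis; dotted lines at 2-fold), for *Ihh* iΔEC/iΔEC over *Ihh*+/+ (top) and SAG over DMSO (bottom), among genes that reached 1 FPKM in either group. Red triangles are members and purple triangles interferon-response genes; on top the members crowd between -0.40 and -0.18, and below *Cfb* lies alone at -1.48 with the other 4 between -0.44 and -0.11.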

How the data were processed

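The UMI count of each gene in each cell was deposited by the authors, per the study's methods after Cell Ranger on mm10 and filtering in Seurat on UMIs, genes and mitochondrial share of each cell, together with cluster numbers and the fraction of mitochondrial UMIs per cell. FPKM values are deposited as group averages, made by the authors with STAR, SAMtools and Cufflinks on mm10. The deposited log2 fold changes and adjusted p-values of these tables, the cluster averages and the list of choroidal EC genes hold the authors' own comparisons and were not used. Values of single bulk libraries were not analysed here. No doublets were removed.

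Members, lists and rules were chosen with earlier results of these data known. UMIs were summed per cluster and library with Python 3.11.15, pandas 2.3.3 and scipy 1.17.1 and scaled to 10,000. A bulk gene was counted as past 2-fold at a ratio of group means of at least 2 in either direction and 1 FPKM or more in the higher of the groups. The named genes were all 9 members, other complement genes with at least 1 UMI per 10,000 in a cluster of both libraries or past 2-fold, and the 3 genes most correlated with each member; some further complement genes were named after their values were seen, and a few genes are not reported here. The functions were tested on simulated data. Alternatives were the mean over cells, cells thinned to 1700 UMIs, removal of cells with both *Xist* and *Ddx3y*, other pseudocounts and minimums, median-of-ratios scaling and a 1.5-fold limit.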

Additional observations from a re-analysis of the deposited data

How the results depend on the processing

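With levels averaged over cells, C1q in cluster 11 was higher in both libraries: *C1qa* 18.1 in B6129PF1/J and 23.9 in C57BL/6J, *C1qb* 16.2 and 18.7, *C1qc* 14.3 and 16.9 UMIs per 10,000. *Cd55* in cluster 7 of C57BL/6J was lower at 0.345. With cells thinned to 1700 UMIs, *C1qa* was 17.3 and 21.8, *C1qb* 16.4 and 18.4, *C1qc* 14.6 and 15.9, *Serping1* in cluster 7 was 13.99 and 10.8, *C3* in cluster 7 of B6129PF1/J 0.0636 and *Cd55* in cluster 7 of C57BL/6J 0.372. Thinned shares of cells with a UMI were 18.9% and 24.7% for *C1ra*, 80.5% and 80.4% for *Serping1* and 2.16% and 4.43% for *Cd55* in cluster 7, and in B6129PF1/J 1.08% for *C3* and for *Cfb* in cluster 7 and 12.96% for *C4b* in cluster 12. The remaining 37 levels under these settings and without cells with both *Xist* and *Ddx3y* stayed within the counting interval.

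In the SAG comparison, 3 members passed the limit without a minimum level, as did 13.9% of all 16135 genes. *Cfb* and *C3* were lower with SAG, and *C1qc* was higher, at 0.026 FPKM with DMSO and 0.12 with SAG. In each of the 5 other settings 1 member passed, *Cfb*, as did 1.02% to 3.84% of genes. In the *Ihh* comparison no member passed under any setting, where 0.803% to 12.4% of genes did. Leaving out single bulk libraries could not be done on group averages. No paired analysis was possible because no result comes from a test.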

Other observations

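The order of the members by tissue FPKM in *Ihh*+/+ mice and by UMIs in dissociated cells was not the same. *C4b* had 20.3 FPKM but 80 and 61 UMIs in the libraries, whereas *C1ra* had 14.7 FPKM and 949 and 852 UMIs and *C1s1* 26.2 FPKM and 2063 and 2062 UMIs. *C2* had 27.9 FPKM and 229 and 274 UMIs. FPKM is scaled by length and UMIs are counted near the 3′ end, and the mice differed in age, so the cause was not tested. *Cfb* (5.48 FPKM) had 19 and 22 UMIs, while *C5ar1* (1.37 FPKM) had 65 and 116.

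*C3ar1*, the receptor for C3a, was found in the same cluster as the C1q chains, with 94.3% and 94.8% of its 53 and 77 UMIs in cluster 11.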
